A study of Mus musculus with 6 samples.

Results

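The 38 mouse Hox genes studied here belong to the 4 Hox clusters, HoxA (10 members), HoxB (10), HoxC (9) and HoxD (9), and were followed in open chromatin of the embryonic face. The 6 peak lists were merged at an overlap of 1 bp into 382006 regions, and the 241 regions that overlapped the 4 clusters were kept, each cluster running from its outermost Hox genes with 20 kb added at both ends, 651.8 kb in all. A member's promoter counted as called wherever some peak of the list reached into the 1 kb on either side of one of its coding start sites. The members are 38 of 21851 protein-coding genes measured in the same way, and no pair of members shared a peak.

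Accessible DNA had been cut and tagged with the Tn5 transposase (bulk ATAC-seq) in embryos of wild-type mice of stage E11.5. Freshly dissected facial tissue of mixed cell type, about 50000 nuclei a library, gave 2 libraries labelled maxillary process, 2 labelled mandibular process and 2 labelled nose, all read as single ends of 50 bp. The names of the 4 jaw files carry the abbreviation of the other jaw process, so the jaw libraries are called here by their labels alone. The labels do not say whether the replicates came from separate embryos, so the p-values below measure only the spread between these libraries, which may be technical.

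Hox genes encode homeodomain transcription factors that give cells their position along the axis from head to tail. Genes of low paralogue number lie at the 3′ end of a cluster and are active early and towards the hindbrain, and genes of high number lie at the 5′ end and are active late and towards the tail. Cranial neural crest that fills the first pharyngeal arch, from which the maxillary and mandibular processes grow, and the frontonasal region is known to carry no Hox activity, whereas crest of the second arch depends on Hoxa2. Silent Hox clusters are known for cover by Polycomb proteins over their CpG-rich DNA, and CTCF divides them into domains. A peak shows accessible DNA and not transcription, and in bulk tissue fewer cells of a type and less access per cell cannot be told apart.

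Of the 38 members, 22 matched the RefSeq promoter table of GRCm38.p6, which gives 250 bases before and 50 after a start site. A few promoters are shown because they span what was seen, from peaks in every library (Hoxd1 and Hoxd10) over peaks in some (Hoxa2) to none (Hoxb1 and Hoxa6). Capitals mark the motifs searched, read on both strands: the SP/KLF box GGGCGG in Hoxd1 and Hoxa6, the retinoid receptor element AGGTCA in Hoxd10, the PBX-HOX site TGATNNAT in Hoxb1 and Hoxa2, and the MEIS site TGACAG in Hoxa2. The sequences run 5′ to 3′ on the strand of the gene.
Hoxd1, chr2:74762730-74763029, plus strand: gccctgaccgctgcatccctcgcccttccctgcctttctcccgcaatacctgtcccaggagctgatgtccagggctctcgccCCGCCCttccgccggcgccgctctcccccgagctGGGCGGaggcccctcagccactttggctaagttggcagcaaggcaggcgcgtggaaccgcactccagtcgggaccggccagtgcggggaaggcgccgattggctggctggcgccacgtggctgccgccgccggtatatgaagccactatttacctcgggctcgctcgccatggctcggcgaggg
Hoxd10, chr2:74691641-74691940, plus strand: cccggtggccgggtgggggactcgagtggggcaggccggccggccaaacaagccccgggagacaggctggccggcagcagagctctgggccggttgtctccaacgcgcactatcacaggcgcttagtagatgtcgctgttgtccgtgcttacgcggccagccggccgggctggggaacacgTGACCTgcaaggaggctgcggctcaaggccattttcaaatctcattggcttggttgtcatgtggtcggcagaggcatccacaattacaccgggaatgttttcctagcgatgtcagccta
Hoxa2, chr6:52164782-52165081, minus strand: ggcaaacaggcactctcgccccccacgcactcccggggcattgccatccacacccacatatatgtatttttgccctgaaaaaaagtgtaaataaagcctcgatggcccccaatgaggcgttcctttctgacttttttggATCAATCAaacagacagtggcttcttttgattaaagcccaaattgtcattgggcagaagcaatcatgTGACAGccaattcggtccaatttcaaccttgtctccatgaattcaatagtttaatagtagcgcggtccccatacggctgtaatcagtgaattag
Hoxb1, chr11:96365508-96365807, plus strand: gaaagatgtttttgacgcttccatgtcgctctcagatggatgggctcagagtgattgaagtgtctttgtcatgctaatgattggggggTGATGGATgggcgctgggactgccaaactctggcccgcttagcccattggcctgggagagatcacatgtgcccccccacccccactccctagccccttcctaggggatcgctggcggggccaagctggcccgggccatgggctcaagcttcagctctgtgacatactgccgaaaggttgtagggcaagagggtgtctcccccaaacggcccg
Hoxa6, chr6:52208623-52208922, minus strand: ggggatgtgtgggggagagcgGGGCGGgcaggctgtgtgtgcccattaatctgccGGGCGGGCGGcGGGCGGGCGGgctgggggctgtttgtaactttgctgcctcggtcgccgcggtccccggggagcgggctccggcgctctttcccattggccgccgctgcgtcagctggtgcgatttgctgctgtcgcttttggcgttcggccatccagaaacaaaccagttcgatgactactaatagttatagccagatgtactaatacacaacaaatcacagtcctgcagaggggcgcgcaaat
The uncalled Hoxa6 stretch held 26 CpG dinucleotides and the strongly called Hoxd1 stretch held 29, against 22 in Hoxd10, 10 in Hoxb1 and 9 in Hoxa2. Over the wider 1 kb on either side of the start site, Hoxa6 and Hoxd1 differed more. There the CpG ratio, observed over expected, was 0.460 for Hoxa6 and 0.705 for Hoxd1. It was 0.631 for Hoxd10, 0.405 for Hoxb1 and 0.549 for Hoxa2.

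Hox promoters were accessible in part of the libraries far more often than promoters at large. A peak was called in all 6 libraries at 17 of the 38 members (44.7%), against 65.6% of all protein-coding genes. No library had a peak at 5 members (13.2%), against 26.5% of all genes, and these were Hoxa6, Hoxb1, Hoxb2, Hoxb7 and Hoxc6. The other 16 members were called in 1 to 5 libraries, with 5 of them in a single library (13.2%, against 2.65% of all genes) and 5 in all but 1 (13.2%, against 1.51%). The members are thus described by counts, with no test, since they were chosen as a family.

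**Figure D1:**
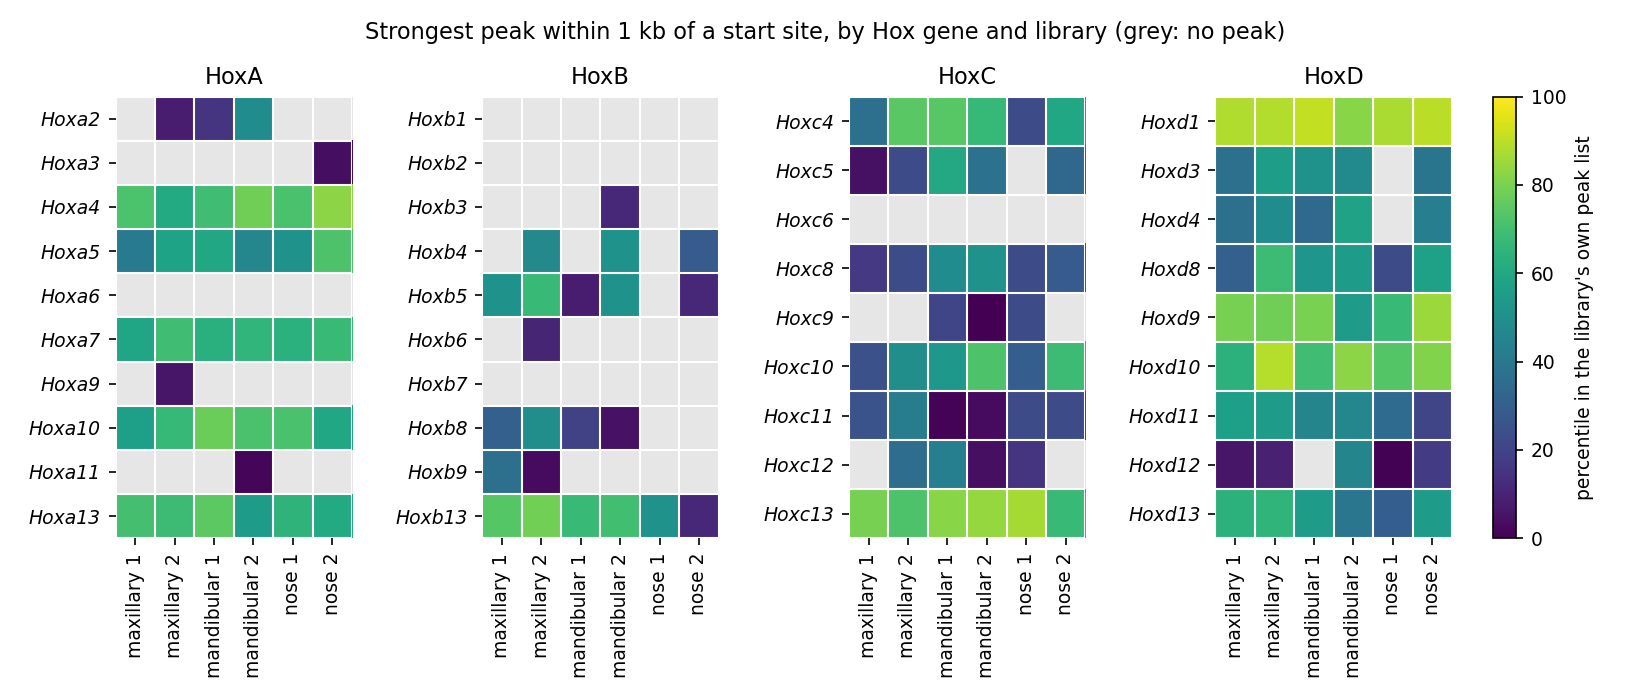
Percentile of the strongest promoter peak within each library's own list (colour) for the 38 Hox genes (rows, by cluster and paralogue number) in the 6 libraries (columns); grey marks no peak. HoxD has the fewest grey cells and HoxB the most, with 51 of 54 and 22 of 60 gene and library pairs called.

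The strength of a peak was read as its percentile within its own library's list, ranked by −log10 q, where 100 is the strongest. Called members had a median percentile between 42.9 and 56.0 in the 6 libraries, whereas all called promoters had one between 94.6 and 96.1. In no library did a member reach the median of all called promoters. Over the genes called in all 6 libraries, the 17 members had a median of 65.0 and ran from 23.2 to 88.3, beside a median of 96.0 for the 14329 genes, and all 17 members lay below the lower quartile of those genes, 90.5. Among the 14329 genes, 5.05% had a median percentile at or below that of the median member. The fold over local background at the 151 member calls ran from 2.88 to 10.7 with a median of 4.77.

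**Figure D2:**
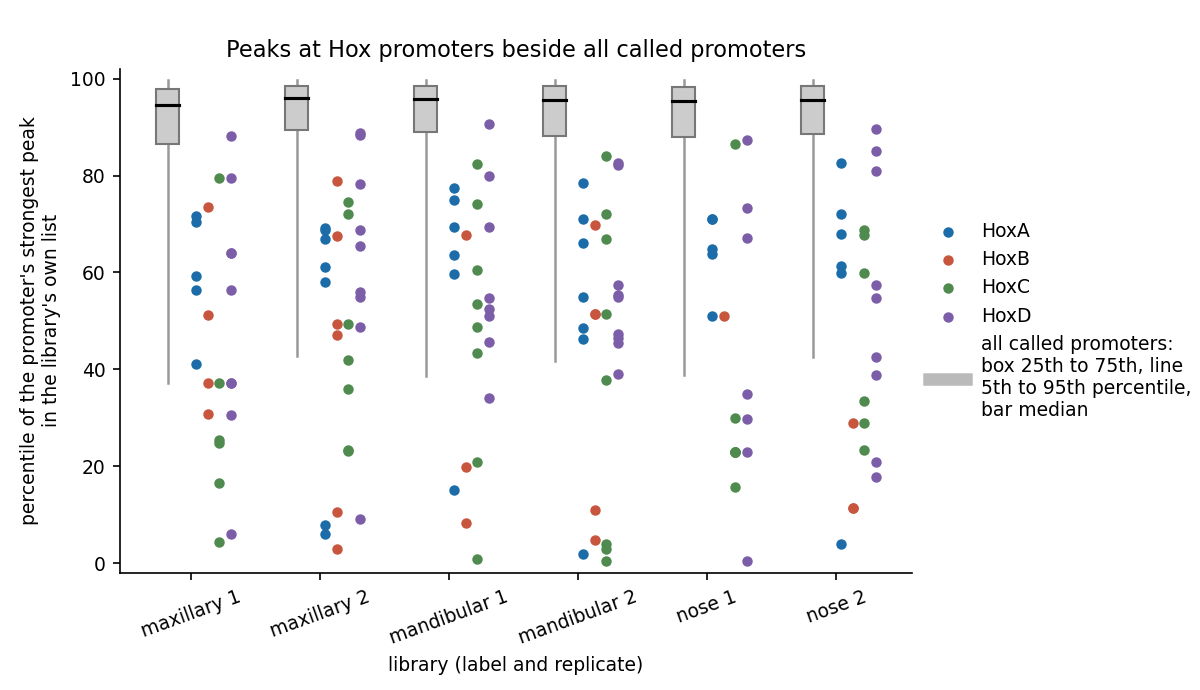
Percentile of each called Hox promoter (points, coloured by cluster) in each library beside all called promoters of that library (grey box, 25th to 75th percentile; line, 5th to 95th; bar, median). The members' medians, 42.9 to 56.0, sit far under the bars at 94.6 to 96.1.

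Hoxd1, at the 3′ end of HoxD, had the strongest promoter peak of all members. Its peaks stood at percentiles 88.2 and 88.3 in the maxillary libraries, 90.7 and 82.2 in the mandibular libraries and 87.3 and 89.7 in the nose libraries. The labels overlapped, and the 6 values spanned only 8.50 points. Even so, 20.7% of the genes called in all libraries ranked below it.

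Hoxc13, at the 5′ end of HoxC and known from hair and nail, came next with 79.5 and 72.0 in the maxillary libraries, 82.3 and 84.1 in the mandibular and 86.6 and 67.7 in the nose libraries. In both maxillary libraries and nose replicate 2 the strongest peak had its summit 962 to 1017 bp after the start site, and in the other 3 libraries 184 to 201 bp before it. Hoxd9, a limb and trunk gene, followed with 79.5 and 78.3, then 79.9 and 54.9, then 67.2 and 85.0 in the same order. For both genes at least 1 pair of replicates lay farther apart than any of the label means did. At the other end of the members called everywhere, Hoxc11 stood at 25.4 and 41.9, then 0.789 and 2.96, then 23.0 and 23.3. Hoxc8, a gene of the thoracic trunk, stood at 16.5 and 23.2, then 48.7 and 51.4, then 23.0 and 28.9. Hoxd11, which patterns the forearm with its paralogues, stood at 56.4 and 54.9, then 45.7 and 46.4, then 34.9 and 20.8. A percentile also depends on the length of its list and on the lowest −log10 q the list holds, which differed between libraries, so no order of the labels is read from these values.

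The remaining members called in all libraries had median percentiles between 51.4 and 77.1. They were Hoxd10 (77.1), Hoxa4 (71.4), Hoxa10 (69.0), Hoxb13 (68.7), Hoxa13 (66.8), Hoxa7 (65.0), Hoxc4 (63.4), Hoxd13 (54.7), Hoxa5 (54.4), Hoxd8 (53.9) and Hoxc10 (51.4). Hoxb13, the one HoxB gene called in all libraries, ranged most, from 78.9 in maxillary replicate 2 to 11.4 in nose replicate 2. Hoxa7 ranged least of these, from 59.2 to 69.2.

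The 5′ genes were called in a larger share of gene and library pairs than the 3′ genes. Over all protein-coding genes 69.1% of such pairs had a promoter peak. Paralogues 9 to 13 had one in 76 of 96 pairs (79.2%), and 10 of their 16 members were called in all libraries, near the 65.6% of all genes, with none uncalled. Paralogues 5 to 8 were called in 39 of 66 pairs (59.1%), and paralogues 1 to 4 in 36 of 66 (54.5%). All 3 group 10 genes and all 4 group 13 genes, the 5′ members known from lumbar vertebrae and from digits and the urogenital tract, were called in all 6 libraries. Group 6 was called in 1 of 18 pairs, Hoxb6 in maxillary replicate 2. Groups 2 and 3, which are known from the hindbrain and the arches behind the first, were called in 3 of 12 and 7 of 18 pairs, and no member of either was called in all libraries. The order was not even, since group 9 was called in only 12 of 24 pairs.

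The clusters differed in the same counts. HoxD promoters were called in 51 of 54 pairs (94.4%), HoxC in 42 of 54 (77.8%), HoxA in 36 of 60 (60.0%) and HoxB in 22 of 60 (36.7%). HoxD had 6 of 9 members called in all libraries, HoxC 5 of 9, HoxA 5 of 10 and HoxB 1 of 10. Genes of a cluster lie within a few kilobases of one another, so they are not independent. The clusters also hold the paralogue numbers unevenly, so the order by paralogue number and the order by cluster cannot be told apart. The order by paralogue number did not hold within every cluster. In HoxC the only member of low number, Hoxc4, was called in 6 libraries, and the 5′ genes Hoxc9 and Hoxc12 in 3 and 4.

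Among the 3′ genes, Hoxa2, which sets the identity of the second arch, was called in 3 libraries. It had no peak in maxillary replicate 1 or in either nose library, and stood at 7.75 in maxillary replicate 2 and at 15 and 48.6 in the mandibular libraries. It was thus called in both mandibular libraries and in neither nose library, as were 0.499% of all genes. Hoxa3 and Hoxb3, genes of the third arch and its derivatives, each had a peak in 1 library, at 3.89 in nose replicate 2 and at 11 in mandibular replicate 2. Hoxb4 was called in the second replicate of every label, at 47.1 for maxillary, 51.4 for mandibular and 28.9 for nose, and in no first replicate.
Hoxd3 and Hoxd4 were missing in nose replicate 1 alone. Hoxd3 stood at 37.1 and 55.9 in the maxillary, 50.9 and 47.3 in the mandibular and 38.9 in the other nose library. Hoxd4 stood at 37.1 and 48.7, then 34.0 and 57.5, then 42.6.

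Of the middle genes, which act in the trunk, Hoxb5 and Hoxc5 were also missing in nose replicate 1 alone. Hoxb5 stood at 51.3 and 67.6 in the maxillary, 8.16 and 51.4 in the mandibular and 11.4 in nose replicate 2. Hoxc5 stood at 4.37 and 23.4, then 60.5 and 37.8, then 33.4. Nose replicate 1 thus lacked 4 of the 5 members that missed a single library, and it had the fewest members called, 20 against 24 to 29 in the others. Hoxb8 was called in the 4 jaw libraries only (both maxillary and neither nose library, as Hoxb9 and 0.467% of all genes), at 30.7 and 49.4 in the maxillary and 19.8 and 4.71 in the mandibular. Hoxb6 was called at 10.5 in maxillary replicate 2.

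Of the 5′ genes, Hoxb9 was called in the maxillary libraries only, at 37.1 and 2.97. Hoxc9 was called in both mandibular libraries, at 20.8 and 0.319, and in nose replicate 1 at 23.0. Neither gene reached the middle of any list. Hoxa9 at 6.0 in maxillary replicate 2 and Hoxa11 at 1.93 in mandibular replicate 2 each had a weak peak in a single library. Hoxc12 was called in maxillary replicate 2 at 35.9, in both mandibular libraries at 43.3 and 4.01 and in nose replicate 1 at 15.6. Hoxd12 was missing in mandibular replicate 1 and stood at 6.02 and 9.06 in the maxillary, 45.5 in mandibular replicate 2 and 0.476 and 17.7 in the nose libraries. Both group 12 genes thus varied from near the bottom to near the middle of the lists. Of the 38 members, 7 were called in a jaw library and no nose library, against 2.75% of all genes, and 1, Hoxa3, the other way, against 1.17%. There are 4 jaw and 2 nose libraries, and 4 of the 7 were called in a single library.

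Hox promoters were called in all libraries less often than other promoters of the same CpG class. A promoter was called CpG-rich if the 1 kb on either side of a start site had at least 50% GC and a CpG ratio, observed over expected, of at least 0.6. Of the 7104 CpG-rich promoters in the annotation, 98.6% were called in all 6 libraries and 0.366% in none. Of the 23 CpG-rich Hox promoters, 13 (56.5%) were called in all and 1, Hoxb7, in none (4.35%). Hoxa11 and Hoxa9, with CpG ratios of 0.799 and 0.737, were called in 1 library each, and Hoxb13, with 0.389, was called in all 6. Among promoters that were not CpG-rich, 4 of 15 members (26.7%) and 49.7% of all genes were called in all. In that class the members were also less often called in none, 4 of 15 (26.7%) against 39.1% of all genes.

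**Figure D3:**
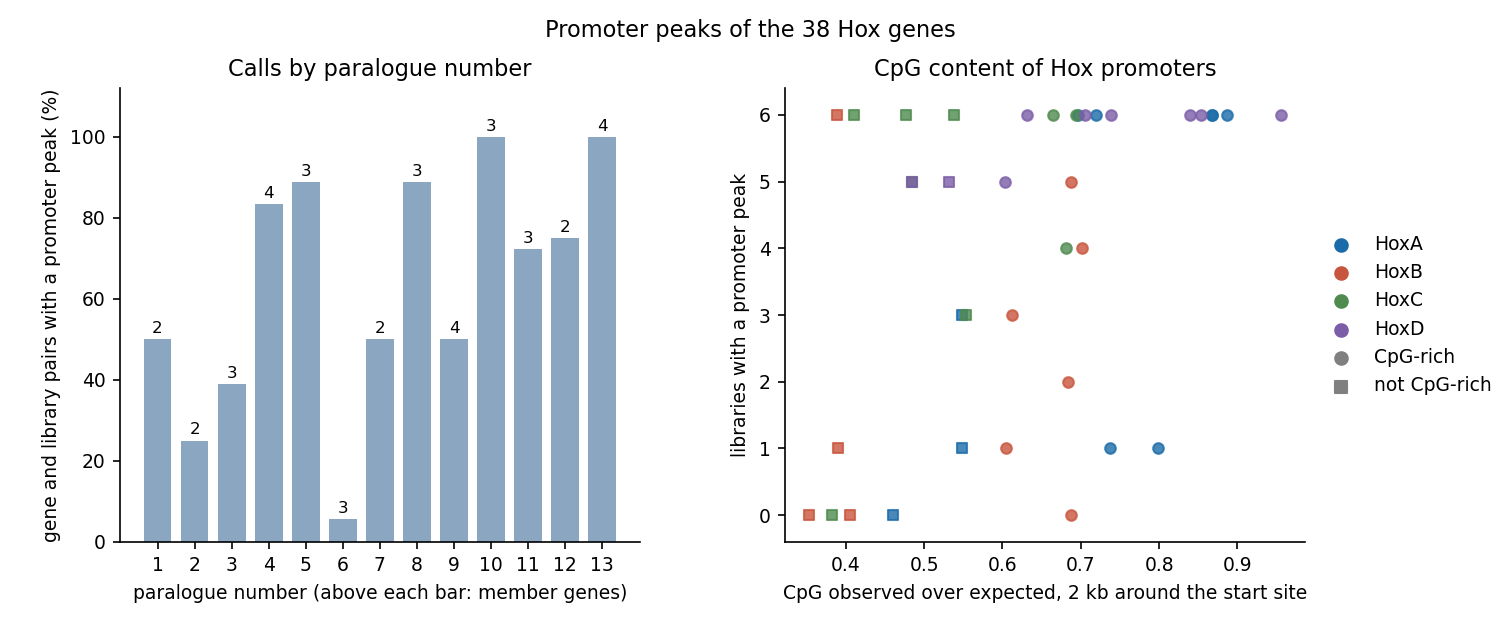
Left, share of gene and library pairs with a promoter peak by paralogue number, with the number of member genes above each bar; right, libraries with a peak against the CpG ratio of each member's promoter (circles, CpG-rich; squares, not; colours, clusters). Groups 10 and 13 reach 100% and group 6 stands at 5.56%, and CpG-rich HoxA and HoxB promoters are found from 6 libraries down to none.

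Most gene lists measured beside the members had a larger share of genes called in all libraries than the members' 44.7%, the exceptions being blood and macrophage markers (33.3%) and noncoding genes of the clusters (8.33%). All 18 facial homeobox genes had a promoter peak in all 6 libraries with a median percentile of 81.6, among them Alx1 (96.3), and 12 of the 18 were CpG-rich. Their lowest, Dlx4, stood at 33.1, within the range of the Hox genes. All 9 TALE cofactors, which bind DNA with Hox proteins, were called in all libraries (median 95), among them Meis1 (87.3) and Pknox1 (98.3), and so were all 8 Polycomb and Trithorax genes (97.3), among them Ezh2 (99.3) and Kmt2a (93.0). Of 12 regulators of Hox onset, 9 were called in all (89.2), including the retinoid receptor Rara (92.8). The caudal-type genes Cdx1 and Cdx4 and the retinoic acid hydroxylase Cyp26c1 were not, with calls in 4, 5 and 5 libraries.

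Most genes next to the clusters had strong promoter peaks. Skap2 and Hibadh beside HoxA (97.8 and 97.7), Lnpk and Mtx2 beside HoxD (99.0 and 89.6) and Calcoco1 beside HoxC (99.5) had a peak in every library. The homeobox genes at the 5′ ends resembled the Hox genes, Evx2 being called in all libraries at a median of 35.3 and Evx1 in 2. Skap1, beside HoxB, was called in none. Of 12 noncoding genes within the clusters, Hotairm1, at the 3′ end of HoxA, was the only one called in all libraries, at 87.3 and 92.2 in the maxillary, 93.2 and 86.2 in the mandibular and 85.9 and 86.4 in the nose libraries. Hotair, Hottip, Hoxb5os, Mir10a and Mir196a-1 were called in none. Mir10b, Mir196a-2, Mir196b, Mir615, Haglr and Hoxb3os had peaks in 1 to 5 libraries, with medians of at most 29.4.

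Markers of other cell types were measured beside the Hox genes. Of 7 hindbrain and neural tube markers, 5 to 7 had a promoter peak in each library, and 4 had one in all, among them Egr2, Olig2 and Sox1. All 6 markers of cranial ganglia, 4 of 6 of endothelium, 2 of 6 of blood and macrophages and 3 of 4 of head muscle were called in all libraries. Nose replicate 1, with the fewest Hox promoters, also had the fewest called markers of hindbrain (5 of 7) and of endothelium (4 of 6). Blood and macrophage markers were lowest in it and in maxillary replicate 1 (2 of 6 in each). All markers of cranial ganglia and of head muscle were called in nose replicate 1. The part of any of these cell types in the Hox calls was not tested. Promoter calls did not separate the labels themselves, since the mandibular gene Hand1 was called in all but maxillary replicate 1 and all 3 maxillary list genes in every library. The other mandibular list genes, Hand2, Dlx5 and Dlx6, were also called in every library. All of them ranked higher in the libraries labelled maxillary, as Hand2 at 86.4 and 88.0 against 76.4 and 61.9 in the mandibular. Nr2f1 of the maxillary list ranked higher there too (74.6 and 75.6 against 54.3 and 68.7), and Pou3f3 and Pou3f4 overlapped. These percentiles move with the length and the lowest −log10 q of a list, so no order of the labels is read from them. A swap of the jaw labels was not tested. Peaks were called at 68.3% to 69.6% of all promoters in the 6 libraries, so the overall promoter calls hardly varied.

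The 241 regions in the clusters lay at 3.70 per 10 kb, against 1.44 over the sequenced genome. HoxD held 72 (5.26 per 10 kb), HoxC 71 (4.56), HoxA 59 (4.06) and HoxB 39 (1.82), HoxB being the longest window at 213.9 kb. They covered 1.73% of the windows in nose replicate 1 and up to 3.66% in maxillary replicate 2. Of the 241 regions, 32 (13.3%, 95% Wilson interval 9.56% to 18.1%) were called in all 6 libraries, against 18.3% of all merged regions, and 104 (43.2%) in one, against 44.4%. The interval covers counting error only.

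Cluster regions lay at promoters of coding genes in 103 cases (42.7%, against 8.26% of all regions). Of these, 17 (16.5%) were called in all libraries, whereas 56.1% of all promoter regions were. The other 138 lay in introns (58), exons (41) and between genes (39). The cluster regions, those at promoters included, were narrow, with a median width of 131 bp against 170 bp for all regions. The widest, 1068 bp at chr2:74762646-74763713, spanned the Hoxd1 start site.

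**Figure D4:**
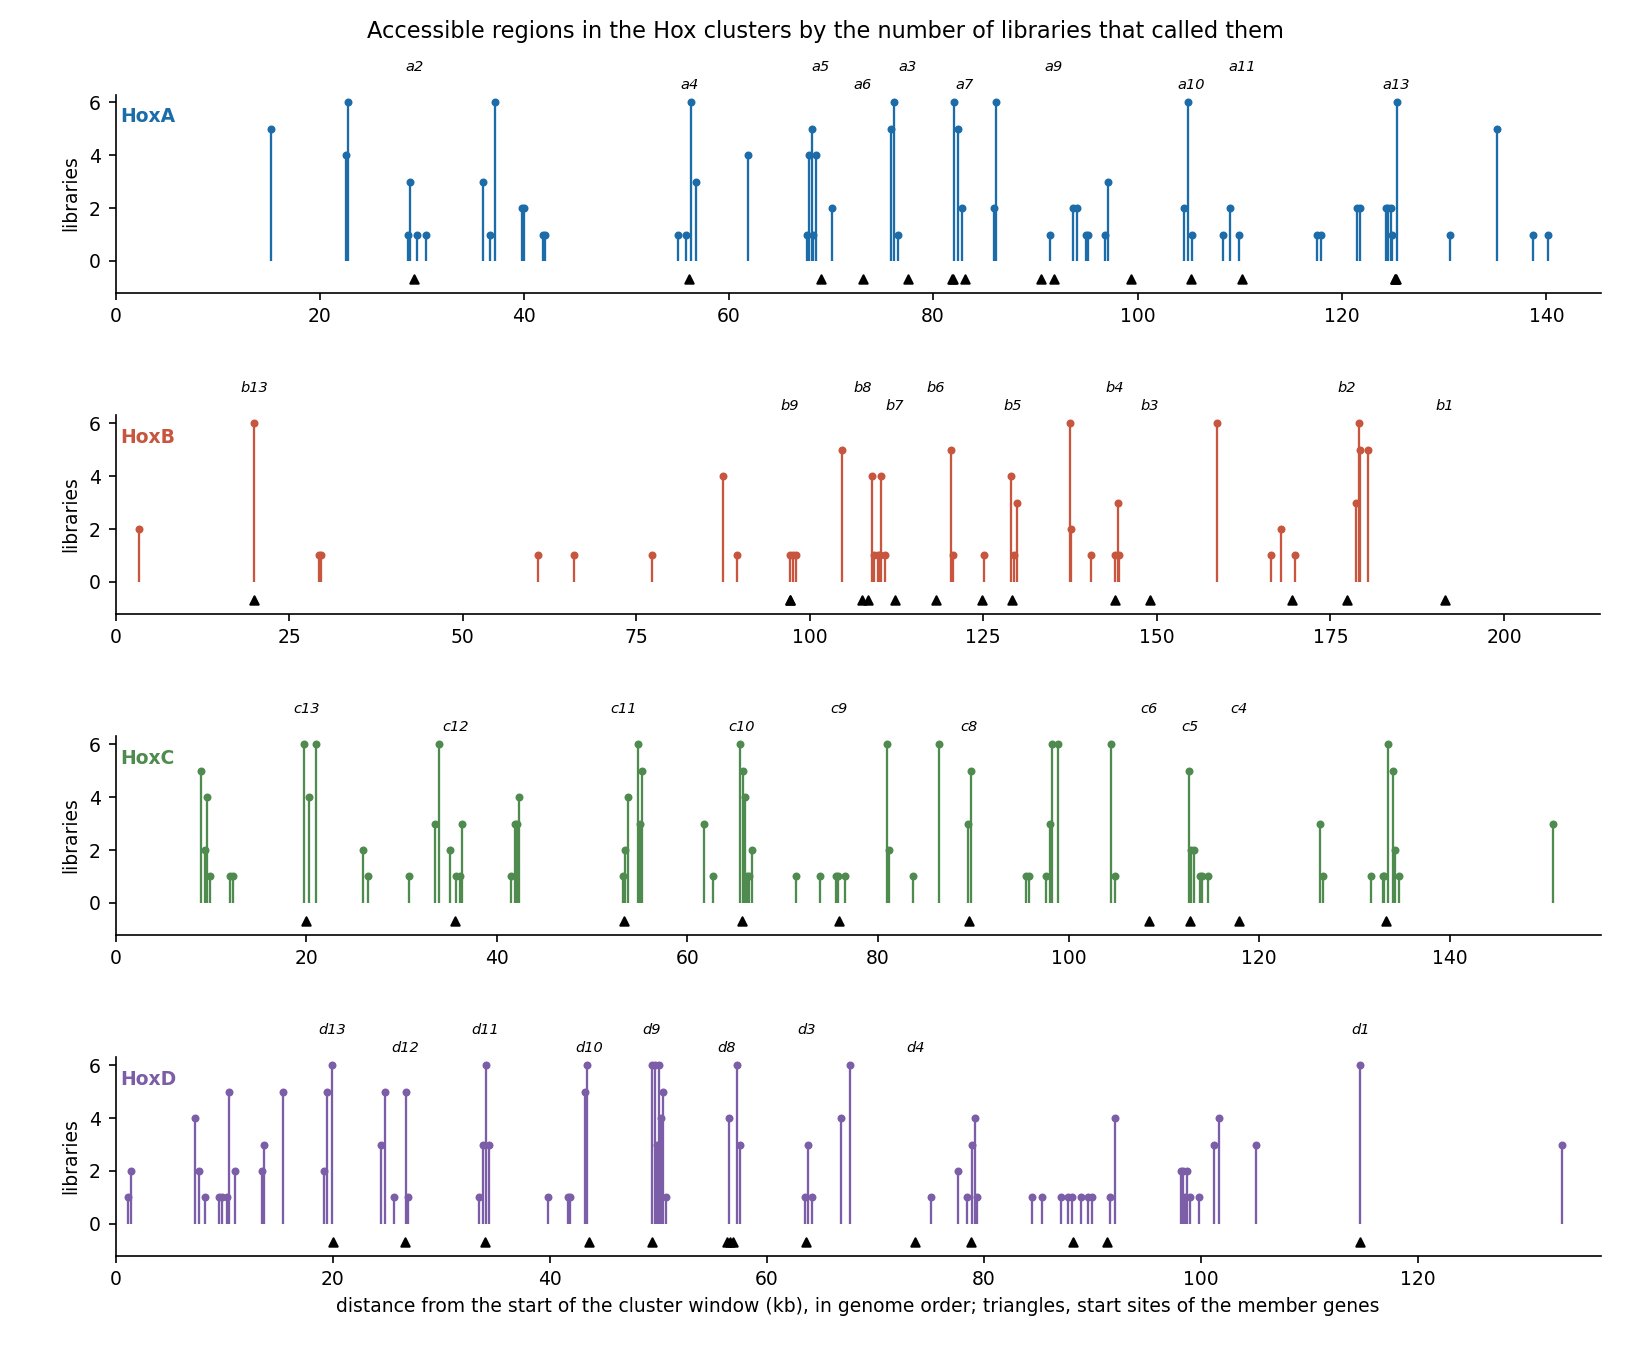
Each line is an accessible region, placed by its strongest summit in kb from the start of the cluster window, and its height is the number of libraries that called it (at most 6); triangles mark start sites of the member genes, and labels name them. Regions called in all libraries lie in every cluster, 8 in HoxA, 4 in HoxB, 11 in HoxC and 9 in HoxD. Some of them stand close together, as at the Hoxd9 promoter. Most lines reach only 1 or 2 libraries.

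Of the 32 regions called in all libraries, 15 had their strongest summit outside promoters, 9 in introns, 4 in exons and 2 between genes. In HoxA the strongest of these was a 203 bp region at chr6:52211641-52211843, 1360 bp after the start site of Hoxa3 and between the promoters of Hoxa6 and Hoxa7. It stood at percentiles 70.3 and 87.5 in the maxillary, 77.1 and 83.4 in the mandibular and 78.5 and 69.9 in the nose libraries. The neighbouring Hoxa6 promoter was called in none of the libraries. In HoxD it was a 592 bp region at chr2:74715794-74716385, 4073 bp after a start site of Hoxd3 and in an exon of Hoxd3os1, at 74.2 and 78.2, then 89.3 and 82.2, then 83.7 and 82.5. In HoxC 1 of the 15, a 689 bp region at chr15:102921532-102922220, reached into the Hoxc13 promoter, and its peaks are those given above for Hoxc13 in both maxillary libraries and nose replicate 2. The strongest HoxC region clear of the members' promoters was a 567 bp region at chr15:102999233-102999799 in the span of Hoxc6, at 69.5 and 67.0, then 43.0 and 72.5, then 63.4 and 79.5. In the HoxA and Hoxc6 regions the values of the labels overlapped. At promoters the strongest regions were those of Hoxd1, Hoxd10, Hoxc13, Hoxa4 and Hoxb13. By contrast, chr2:74673070-74673270, 1873 bp before Hoxd12, reached 69.5 to 79.2 in 5 libraries and was missing in maxillary replicate 1. Strong regions called in fewer libraries also lay 1902 bp after Hoxb8 (4 libraries, 11.4 to 64.9) and at the Hoxb5 promoter (4 libraries, 8.16 to 67.6). At the Hoxa5 promoter, a 159 bp region at 72.0 was called in nose replicate 2 alone. It lay beside a region at chr6:52203612-52203756 that was called in the other 5 libraries, so the Hoxa5 promoter was called in all 6.

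The DNA under the cluster regions was rich in GC and CpG. In the 201 bp around the strongest summit the median GC content was 60.2%, against 47.3% for all regions, and the median CpG ratio 0.683 against 0.207. Outside promoters the contrast held, with 58.2% against 46.8% and 0.618 against 0.192. The SP/KLF box was present in 27.4% of cluster regions and 7.58% of all, but in 33.0% against 37.9% of promoter regions. The CTCF core (AG, then GG, AG, GT or AT, then GGC, then GC or AG) was present in 16 cluster regions (6.64% against 4.36%), 8 of them in HoxA, and in 4 of the 32 called in all libraries (12.5%, against 9.16% of all such regions). MEIS sites were present in 6.64% against 16.3%, the homeodomain core TAATTA in 1.66% against 5.11%, PBX-HOX sites in 4.56% against 7.86%, retinoid elements in 5.39% against 10.4% and EGR sites (GTGGGCG, which can overlap an SP/KLF box) in 5.39% against 1.64%. In promoter regions alone the shares were 5.83% against 7.34% for EGR, 2.91% against 1.81% for TAATTA and 2.91% against 3.31% for PBX-HOX. MEIS sites and retinoid elements stayed lower there (7.77% against 11.3%, 5.83% against 7.86%). Outside promoters the contrasts kept their direction, with EGR at 5.07% against 1.12%, MEIS at 5.80% against 16.7% and TAATTA at 0.725% against 5.41%. A match is a description of the letters and not a bound site.

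Of the 24 RefSeq promoters of the 22 matched members, 10 held an SP/KLF box (41.7%, against 35.7% of the 32851 promoters in the table), 7 a retinoid element (29.2%, 16.3%), 4 a PBX-HOX site (16.7%, 8.85%) and 2 a MEIS site (8.33%, 19.2%). The homeodomain core stood in 2 (8.33%, 5.29%), both of them promoters of the same gene, Hoxd11. None held the CTCF core (6.14%) or the EGR string (7.97%). The retinoid element was found at Hoxa5, Hoxb4, Hoxc4, Hoxd3, Hoxd4, Hoxd8 and Hoxd10.

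The 201 bp windows below show the strongest HoxA region outside promoters, which held no searched motif, and 2 regions called in all libraries whose capitals mark a CTCF core. They are given on the plus strand of GRCm38.p6.
Hoxa3 span, chr6:52211655-52211855: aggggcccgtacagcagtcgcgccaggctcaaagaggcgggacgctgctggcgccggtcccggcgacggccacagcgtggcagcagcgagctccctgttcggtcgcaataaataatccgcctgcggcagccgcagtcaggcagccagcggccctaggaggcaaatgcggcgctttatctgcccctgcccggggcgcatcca
Hoxa7 span, 3053 bp before its nearest start site, chr6:52221664-52221864: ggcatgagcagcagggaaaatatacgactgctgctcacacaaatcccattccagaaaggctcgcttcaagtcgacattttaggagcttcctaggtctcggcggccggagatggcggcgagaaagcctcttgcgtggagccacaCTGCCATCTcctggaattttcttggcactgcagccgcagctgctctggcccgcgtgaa
Before Hoxc8 by 3057 bp, chr15:102987450-102987650: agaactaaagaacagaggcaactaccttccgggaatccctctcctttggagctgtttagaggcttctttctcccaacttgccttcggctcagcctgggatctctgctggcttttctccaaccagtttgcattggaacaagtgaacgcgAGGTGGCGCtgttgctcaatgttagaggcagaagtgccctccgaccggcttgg
The Hoxa7 region stood at 29.9 and 43.9 in the maxillary, 61.1 and 72.3 in the mandibular and 73.3 and 57.4 in the nose libraries. The Hoxc8 region stood at 5.46 and 64.9, then 25.0 and 1.76, then 50.9 and 64.2, with wide gaps between replicates.

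Fewer cluster regions were called in the nose libraries, by a margin that the replicates did not separate. The maxillary libraries called 98 and 132 regions, the mandibular 113 and 128, and the nose 70 and 99. Against the other 4 libraries the nose label differed by -33.2 regions (p = 0.200), the mandibular by 20.8 (p = 0.400) and the maxillary by 12.5 (p = 0.533), by an exact two-sided permutation test over the 15 choices of 2 libraries, with an adjusted p of 0.533 for each of the 3 labels. The smallest p this design allows is 0.0667. The maxillary difference turned to -5.00 without maxillary replicate 2, and the nose difference lay between -18.8 and -48.0 whichever library was left out.

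The lists differed in length, from 219779 to 299731 lines, so each was also shortened to its best 219779 lines. The maxillary libraries then called 98 and 74 regions, the mandibular 74 and 76, and the nose 51 and 62. Both nose libraries lay below all 4 jaw libraries, with a difference of -24.0 regions and p = 0.0667 in the same exact permutation test, the smallest it can give, before adjustment over the labels. With peaks of a −log10 q of at least 5 the difference was -7.75 regions (p = 0.733, exact permutation test).

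**Figure D5:**
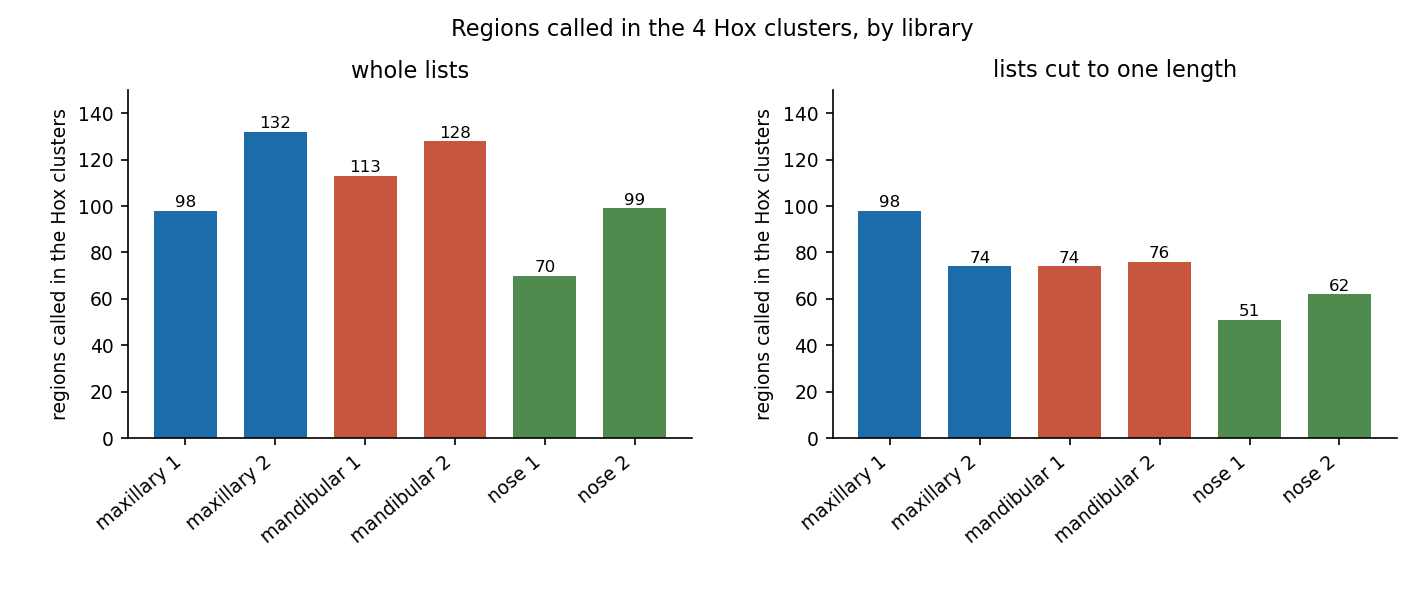
Number of regions called in the 4 Hox clusters in each library (bars, coloured by label), from the whole lists on the left and from the best 219779 lines of each list on the right. The nose libraries are at 70 and 99 on the left and at 51 and 62 on the right, where all jaw libraries reach 74 or more.

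Few cluster regions belonged to one label. Regions that both libraries of a label shared, and that were missing in the other 4, numbered 8 for the mandibular process (3.32%, against 2.82% of all regions), 2 for the maxillary process (0.830%, against 1.91%) and 2 for the nose (0.830%, against 3.18%). Both nose regions lay in HoxA, 324 bp after a start site of Hoxa7 at chr6:52218327-52218432 (percentiles 12.6 and 34.8) and 672 bp after one of Hoxa13 at chr6:52260046-52260190 (23.0 and 47.1). Of the mandibular regions, the 3 of highest mean percentile lay 96 bp after the Hoxc5 start site at chr15:103013852-103013969 (60.5 and 23.3), beyond the 3′ end of Hoxa13 at chr6:52257053-52257179 (43.8 and 35.8) and 726 bp after the Hoxa10 start site at chr6:52240079-52240173 (35.8 and 21.7). The maxillary regions lay in an exon of Evx2 beyond the 5′ end of Hoxd13 at chr2:74655817-74656244 (24.5 and 45.7) and before Hoxb4 at chr11:96311958-96312036 (16.5 and 2.97). In each of the 12, at least 1 of the label's libraries had the region under percentile 50.

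These counts rested on single libraries. Leaving out a library of the label relaxes the rule to 1 library and gave 26 and 21 maxillary, 33 and 23 mandibular and 21 and 6 nose regions without replicate 1 and replicate 2. The maxillary count rose to 5 without either mandibular library and to 4 without nose replicate 2, and the mandibular count rose to 17 without maxillary replicate 2.

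Between pairs of labels, jaw regions missing in the nose outnumbered the reverse in the clusters. Regions called in both mandibular and neither nose library numbered 22 (9.13%, against 5.11% of all regions), 10 of them in HoxD, and the reverse numbered 3 (1.24%, against 5.21%). Regions called in both maxillary and neither nose library numbered 13 (5.39%, against 3.72%) and the reverse 3 (1.24%, against 5.72%). Between the jaw labels, 10 were called in both mandibular and neither maxillary library (4.15%, against 5.40%) and 6 the other way (2.49%, against 3.52%). The contrasts share libraries, and their counts follow the low total of the nose libraries given above.

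Within the clusters, libraries of a label shared covered bases with a Jaccard index of 0.389 ± 0.0528 (SD, n = 3 pairs), and libraries of different labels with 0.358 ± 0.0429 (SD, n = 12 pairs). The difference of 0.0311 had p = 0.133 by an exact one-sided permutation test over the 15 ways to pair the libraries, of which the smallest p is 0.0667. With lists of equal length it was 0.0415 with that smallest p, 0.0667, in the same exact permutation test.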

How the data were processed

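Bulk ATAC-seq peak lists of 6 libraries of mouse facial tissue were used. Per the submitters' processing notes the reads were handled with Bowtie2 and SAMtools on mm10, and the peak caller is not given in the sources used here. The authors deposited 1 narrowPeak list per library whose lines hold a summit offset, a −log10 p, a −log10 q, a score and the fold (a ratio) over background. The deposited score was 10 times the −log10 p without its decimals. The lowest −log10 q was 1.30 in 4 lists, 1.62 in mandibular replicate 1 and 2.55 in maxillary replicate 2. No reads were used, so depth is unknown and no limit of detection can be given. Tests across libraries used presence alone. Strength is given as a mid-rank percentile within a list (by −log10 q, ties by −log10 p), on which many weak peaks tie and which moves with the list's length and lowest q, so labels were not ordered by it.

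Start sites were those of protein-coding transcripts in the basic GENCODE M21 annotation. A region belonged to a cluster if it overlapped its window. Where a gene had several start sites, its strongest peak was taken. All 38 members are named, with values in every library for those called in some or no libraries and for the 3 strongest and 3 weakest of the rest. Values of some listed genes and of a region are not reported here. Motifs were sought within 100 bp of a region's strongest summit. The CpG split was added after the counts were seen. The members and lists were chosen with earlier results of these data known. The work was done in Python 3.11.15 (pandas 2.3.3, NumPy 2.4.6, matplotlib 3.10.9, SciPy 1.17.1), and the functions were tested on simulated data. Alternatives changed the peaks used, promoter width, start site, window, overlap and libraries.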

Additional observations from a re-analysis of the deposited data

How the results depend on the processing

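The count of 17 Hox promoters called in all libraries was 13 with lists of equal length (64.3% of all genes were), 16 with 500 bp promoters or the most upstream start site and 22 with 2 kb, and 17 to 21 with a library left out. It was 8 at a −log10 q of at least 3, 4 at 5 (59.8% of all genes were) and 0 with the best 50000 peaks. The 5 uncalled members became 10, 11, 16 and 34 under those 4 peak settings, 3 with 2 kb promoters, 10 with the most upstream start site and 5 to 7 with a library left out. Of all genes, 28.4% were uncalled with lists of equal length and 32.2% at a −log10 q of at least 5. For the other peak settings the share of all genes is not given here. The share of cluster regions called in all libraries fell to 7.05% when a peak had to cover 50% or 200 bp of a region, and was 14.2% to 16.8% with a library left out. Regions of a single label numbered 0 (maxillary), 0 (mandibular) and 0 (nose) with the best 50000 peaks, 2 and 0 (mandibular) and 0 and 0 (nose) at a −log10 q of 3 and 5, 5 (mandibular) and 1 (nose) with equal lists, and for the maxillary label 1 with no flank and 4 under the cover rule. With a library left out they ranged from 3 to 26, 8 to 33 and 2 to 21. Stricter settings keep fewer peaks, and the cause was not tested further.

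The mandibular difference in regions reversed to -3.25 at a −log10 q of at least 5 and was 10.8 to 31.7 with a library left out. The maxillary difference ranged from -5.00, without maxillary replicate 2, to 29.8, and the nose difference from -48.0 to -18.8. The Jaccard difference reversed to -0.00146 with the best 50000 peaks and was 0.00363 to 0.0752 with a library left out. Replicate numbers did not pair the libraries, since presence differences between replicates correlated at 0.00927 to 0.0124 between labels over 382006 regions. With a replicate block the differences stayed 12.5, 20.8 and -33.2, with exact permutation p of 0.444, 0.333 and 0.111, and the Jaccard difference of 0.0311 had p = 0.167 (exact permutation), so that no call changed. Depth is unknown, and a missing peak may be a weak one.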
